A study of Arabidopsis thaliana with 4 samples.

Results

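The type-A response regulators of Arabidopsis thaliana are a family of 10 genes (ARR3, ARR4, ARR5, ARR6, ARR7, ARR8, ARR9, ARR15, ARR16 and ARR17), taken here as a family by their locus identifiers. All 10 were listed among the 32678 loci of the deposited table, which gives transcript levels from RNA sequencing as RPKM (reads counted for a gene, divided by its length in kilobases and by the size of the library). Whole plants of 2 genotypes were compared, wild type (WT) and 35S:TEM1, in which the strong and nearly ubiquitous 35S promoter of cauliflower mosaic virus drives the transcription factor gene TEM1 (TEMPRANILLO 1). Each genotype had 2 samples, and each sample held 20 plants pooled at an age of 10 days after growth in LD at 22 °C and harvest at ZT18. Nothing in the labels says whether the pools of a genotype were grown separately or how many transgenic lines were used, so p-values measure the spread between these pools, which may be technical. The values had been scaled to an estimated 20.18 to 30.43 M reads a sample (M, units of 1e+06). The RPKM of TEM1 itself (AT1G25560) was 784 and 827 where it was overexpressed and 16.3 and 30.3 in WT, with transgene and endogenous reads not told apart. Salt tolerance, hormonal components and photoprotection are the subjects in the title of the series, and cytokinin is a plant hormone.

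Cytokinin is sensed by histidine kinase receptors of the AHK family, which pass a phosphate through AHP phosphotransfer proteins to response regulators in the nucleus. Type-B response regulators are DNA-binding activators, and the type-A genes are among their fast targets. Type-A proteins consist mainly of a receiver domain without a DNA-binding part and dampen the pathway, so that their transcripts are both an output of cytokinin signalling and a negative feedback on it. The family falls into pairs of close relatives, ARR3 with ARR4, ARR5 with ARR6, ARR7 with ARR15, ARR8 with ARR9 and ARR16 with ARR17.

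In 35S:TEM1, ARR4, ARR5, ARR8 and ARR16 fell and ARR9 rose, while ARR6, ARR7 and ARR15 did not pass the test. ARR3 and ARR17 were close to 0 in every sample and were not tested. ARR16 had 39.6% of its WT level, ARR8 49.6%, ARR4 51.1% and ARR5 61.9%, whereas ARR9 stood at 177% (ratios of mean RPKM, n = 2 each). The test was limma on log2(RPKM + 1) across the 17746 genes with a mean RPKM of at least 1, 2-sided, and a gene passed with a Benjamini-Hochberg adjusted p under 0.05. Lower calls made up 4 of the 8 tested members against 7.37% of all genes tested, and higher calls 1 of 8 against 18.3%. The median difference of the 8 members was -0.53 on the log2(RPKM + 1) scale, and that of all genes tested was 0.12. In 7 of the 8 members the difference was negative. After the medians of the samples were equalized, the median was -0.68 for the members and -0.03 for all genes, of which 13.5% were then lower and 10.6% higher. ARR4, ARR8 and ARR16 passed in all 13 alternatives to the test, whereas ARR5 lost its call in 8 of them and ARR9 in 1, that without 35S:TEM1 replicate 1. The genotypes did not overlap in 6 members that were lower in 35S:TEM1 (20.7% of all genes tested) and in 1 that was higher (47.4%). The members and the gene lists used below were chosen with earlier results of these data known, so these counts describe the family.

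**Figure D1:**
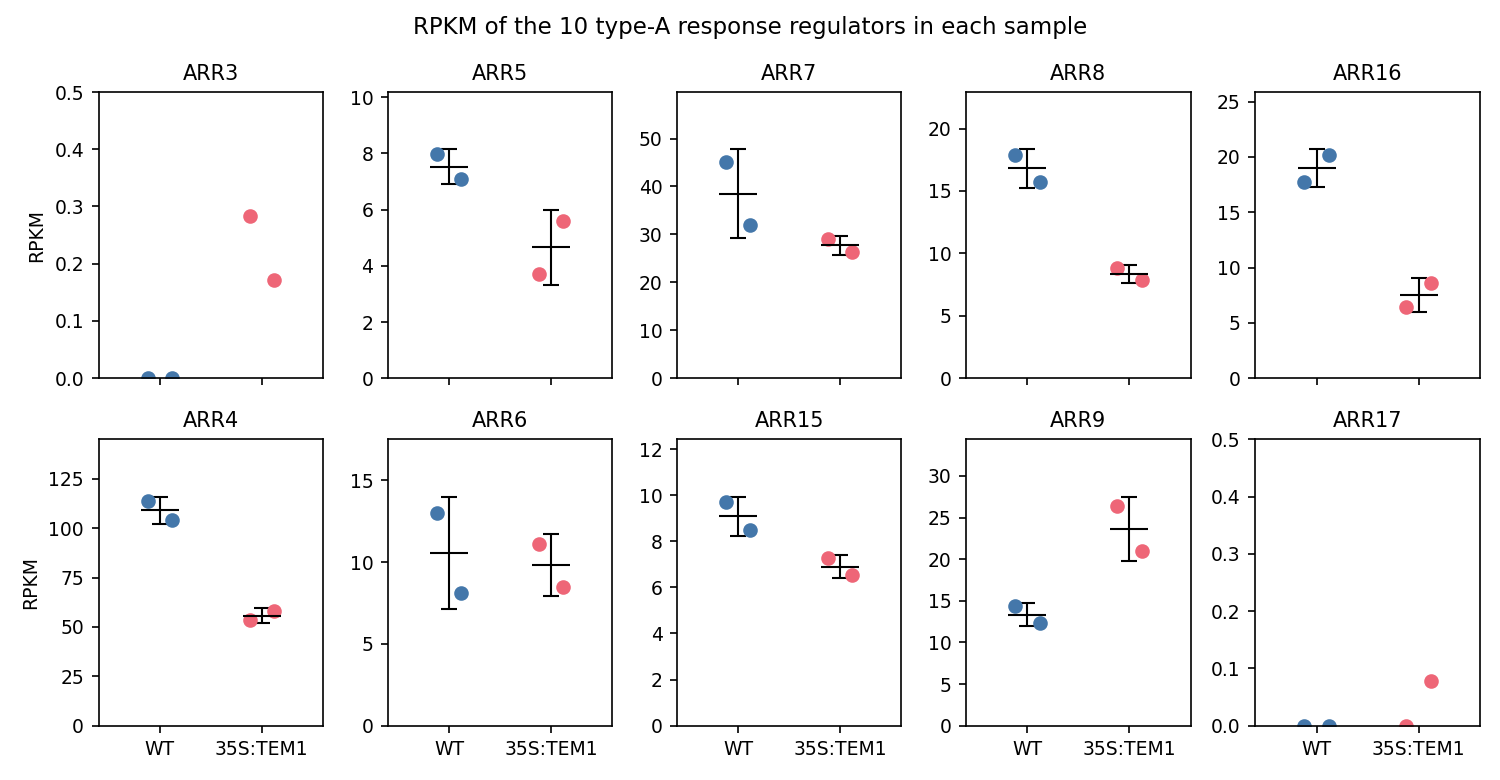
RPKM of each type-A response regulator (vertical axes, linear, each with its own scale) in the 2 WT samples (blue points) and the 2 samples of 35S:TEM1 (red points), with the mean and SD as a black bar and whiskers except for ARR3 and ARR17, which were listed at 0 in WT. Close relatives share a column. ARR8 and ARR9, in the fourth column, moved in opposite directions, with ARR8 at 17.9 and 15.7 in WT against 8.83 and 7.85, and ARR9 at 14.3 and 12.4 against 26.4 and 21.0.

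ARR4 (AT1G10470, TAIR10.1 chr1:3441988-3444360, minus strand), whose protein is known to bind phytochrome B and to act with ARR3 on the period of the circadian clock, was the most abundant member. Its RPKM was 114.0 and 104.3 in WT replicates 1 and 2, and 53.3 and 58.3 in 35S:TEM1 replicates 1 and 2. The genotypes lay far apart compared with the gap between samples of 1 genotype. The means were 109 ± 6.90 and 55.8 ± 3.57 (SD, n = 2 each), and the log2 difference was -0.96 ± 0.09 (SE, 95% confidence interval -1.17 to -0.74, limma adjusted p = 0.00138). Relative to the median of all genes, which itself lay 0.12 higher in 35S:TEM1, the difference of ARR4 was -1.07.

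ARR16 (AT2G40670, TAIR10.1 chr2:16969673-16972113, plus strand), known from the stomatal lineage of the leaf and from the root pericycle, had the largest fall of the family. The RPKM was 17.8 and 20.2 in WT, and 6.43 and 8.60 in 35S:TEM1. Both 35S:TEM1 samples were under both WT samples, although the 35S:TEM1 samples differed from each other more in proportion than the WT samples did. The log2 difference was -1.24 ± 0.15 (SE, 95% confidence interval -1.59 to -0.89, limma adjusted p = 0.00283), which was -1.36 relative to the median of all genes. Markers of the stomatal lineage had lower sums in the same plants. The summed RPKM of the 8 markers, all of which were detected and tested, was 59.5 and 52.2 in WT against 44.8 and 42.5 in 35S:TEM1, with a median log2 difference of -0.25. SPCH, the transcription factor that starts the lineage, was the 1 marker of the 8 that passed, as lower (-0.46 ± 0.12, adjusted p = 0.0352, against 7.37% lower of all genes tested), and with no filter on low values it did not pass (adjusted p = 0.0676). Root markers, given below, had higher sums. Without the most abundant of them, PYK10, these were 30.1 and 31.8 in WT against 56.9 and 63.3 in 35S:TEM1, mostly from SCR and SHR. The part of either tissue in the fall of ARR16 was not tested, and in whole plants fewer cells of a type and less RNA per cell cannot be told apart.

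ARR8 (AT2G41310, TAIR10.1 chr2:17221840-17224880, plus strand) and ARR9 (AT3G57040, TAIR10.1 chr3:21109059-21111567, plus strand) are each other's closest relatives, and both dampen cytokinin responses. ARR9 is also known as a gene whose transcript follows the circadian clock. ARR8 had an RPKM of 17.9 and 15.7 in WT, and of 8.83 and 7.85 in 35S:TEM1. ARR9 had 14.3 and 12.4 in WT, and 26.4 and 21.0 in 35S:TEM1. The genotypes did not overlap in either gene, but the order was reversed between them. The log2 difference was -0.93 ± 0.11 for ARR8 (SE, 95% confidence interval -1.20 to -0.67, limma adjusted p = 0.00284) and 0.78 ± 0.13 for ARR9 (0.45 to 1.10, adjusted p = 0.0102). Relative to the median of all genes these were -1.05 and 0.66. The call of ARR9 was lost without 35S:TEM1 replicate 1 (0.62, adjusted p = 0.0536).

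The ratio of the RPKM of ARR9 to that of ARR8 was 0.80 and 0.79 in the WT samples, and 2.99 and 2.67 in the 35S:TEM1 samples. On the log2 scale the ratio was 1.83 higher in 35S:TEM1, and the samples of the genotypes did not overlap. Since neither gene overlapped and the 2 moved in opposite directions, the ratio could not overlap either, and it restates those differences. An exact permutation test, 2-sided, gave p = 0.333, the smallest value that 2 samples against 2 can give. In the pair ARR7 and ARR15 the ratio was 4.65 and 3.76 in WT against 4.01 and 4.02 in 35S:TEM1, with overlapping genotypes (log2 difference -0.06, exact permutation p = 1.0). For ARR5 over ARR6 it was 0.61 and 0.87 against 0.33 and 0.66, also overlapping (log2 difference -0.64, exact permutation p = 0.667).

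The 250 bases before the annotated start of the 4 genes with calls and the smallest adjusted p are shown, since 3 of them fell to between 39.6% and 51.1% of WT and the fourth rose. They were read 5′ to 3′ on the strand of each gene from the RefSeq genome TAIR10.1. The windows lie at chr1:3444361-3444610 (ARR4, minus strand), chr2:16969423-16969672 (ARR16, plus strand), chr2:17221590-17221839 (ARR8, plus strand) and chr3:21108809-21109058 (ARR9, plus strand). Capitals mark AGATT, a core sequence bound by type-B response regulators, and CAACA or CACCTG, the 2 elements bound by RAV factors, the family of TEM1, on either strand.
ARR4: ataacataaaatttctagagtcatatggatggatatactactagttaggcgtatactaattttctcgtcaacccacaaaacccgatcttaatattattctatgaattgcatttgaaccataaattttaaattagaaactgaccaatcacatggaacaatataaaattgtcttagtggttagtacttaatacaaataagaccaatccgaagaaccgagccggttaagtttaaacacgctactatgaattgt
ARR16: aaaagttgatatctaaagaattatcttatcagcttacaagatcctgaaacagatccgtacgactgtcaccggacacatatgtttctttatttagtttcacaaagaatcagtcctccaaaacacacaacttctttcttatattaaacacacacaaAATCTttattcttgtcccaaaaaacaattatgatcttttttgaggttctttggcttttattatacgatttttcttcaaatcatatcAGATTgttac
ARR8: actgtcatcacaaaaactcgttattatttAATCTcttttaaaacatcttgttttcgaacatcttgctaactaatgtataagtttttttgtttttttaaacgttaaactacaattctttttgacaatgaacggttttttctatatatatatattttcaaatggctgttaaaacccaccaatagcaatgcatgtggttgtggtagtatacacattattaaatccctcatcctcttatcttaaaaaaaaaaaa
ARR9: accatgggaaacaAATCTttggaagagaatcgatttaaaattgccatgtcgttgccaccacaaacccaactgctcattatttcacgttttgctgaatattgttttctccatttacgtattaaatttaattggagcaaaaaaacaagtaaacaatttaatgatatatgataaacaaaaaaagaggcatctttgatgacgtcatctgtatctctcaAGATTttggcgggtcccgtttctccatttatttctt
AGATT occurred once in the ARR8 window and 2 times each in those of ARR9 and ARR16, and ARR4 held none. CAACA and CACCTG occurred in none of the 4 windows. Over the whole family, 7 of 10 windows held AGATT, 5 held CAACA and 0 held CACCTG, and no matches of different motifs overlapped. Of 26707 windows of this length before protein-coding genes, 63.6% held AGATT, 47.3% CAACA and 2.5% CACCTG. Within 1000 bases, AGATT was present before all 10 members (98.3% of such windows), CAACA before 9 (93.7%) and CACCTG before 0 (13.5%). ARR16 was the member without CAACA in the longer window. A match is a letter pattern and does not show binding.

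**Figure D2:**
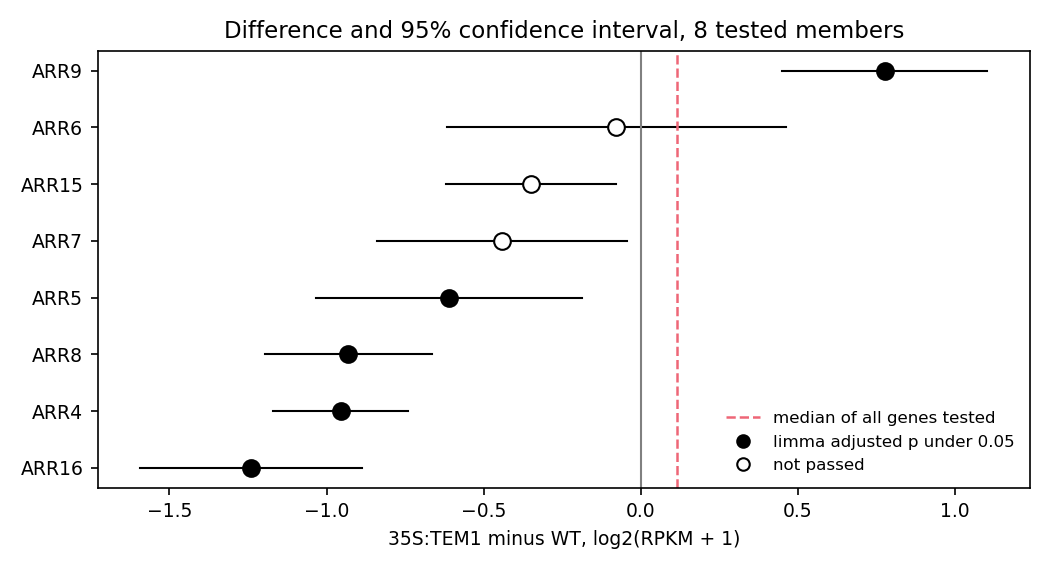
Difference between 35S:TEM1 and WT on the log2(RPKM + 1) scale (horizontal axis) for the 8 tested type-A response regulators (vertical axis), as points with 95% confidence intervals from limma. Filled points passed an adjusted p under 0.05, and the dashed line marks the median of all genes tested, 0.12. ARR16, ARR4, ARR8 and ARR5 lie to its left, and ARR9, at 0.78, is the 1 member to its right.

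ARR5 (AT3G48100), whose promoter serves widely as a cytokinin reporter, had an RPKM of 7.97 and 7.09 in WT, and of 3.71 and 5.60 in 35S:TEM1. The genotypes did not overlap, but 35S:TEM1 replicate 2 lay about midway between replicate 1 and the WT samples. The log2 difference was -0.61 ± 0.17 (SE, 95% confidence interval -1.03 to -0.19), just past the threshold at a limma adjusted p of 0.0488. The call was lost in 8 of 13 alternatives, among them those without 35S:TEM1 replicate 1 (-0.37, adjusted p = 0.198), without WT replicate 1 (-0.54, 0.117) and without WT replicate 2 (-0.68, 0.0654).

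ARR6 (AT5G62920), the closest relative of ARR5, had 13.0 and 8.12 in WT, and 11.1 and 8.46 in 35S:TEM1. The genotypes overlapped fully, and the gap between the WT samples exceeded that between the means. Its log2 difference of -0.08 (95% confidence interval -0.62 to 0.46, limma adjusted p = 0.823) leaves room for a change of the size seen in ARR5.

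ARR7 (AT1G19050) and ARR15 (AT1G74890) are known for restraining cytokinin signalling in the shoot meristem. ARR7, the second most abundant member, had an RPKM of 45.0 and 31.9 in WT, and of 29.1 and 26.3 in 35S:TEM1. The 2 WT samples differed more than WT replicate 2 differed from either 35S:TEM1 sample. Its log2 difference was -0.44 ± 0.16 (95% confidence interval -0.84 to -0.04, limma adjusted p = 0.0964). It passed without WT replicate 2 (-0.68, adjusted p = 0.00709) and was -0.20 without WT replicate 1 (adjusted p = 0.220). ARR15 had 9.69 and 8.47 in WT, and 7.26 and 6.54 in 35S:TEM1, and the genotypes did not overlap. Its log2 difference was -0.35 ± 0.11 (-0.62 to -0.08, adjusted p = 0.0653). With every sample set to the same median it was -0.50 and passed (adjusted p = 0.0244).

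ARR3 (AT1G59940) was listed at 0 in both WT samples, and its RPKM in 35S:TEM1 was 0.28 and 0.17. Over its reference exon length this corresponds to an estimated 7.5 and 6.2 reads. No test is given, since any filter that ARR3 passes is passed through 35S:TEM1 alone. ARR17 (AT3G56380), a relative of a gene that switches sex in poplar, was listed at 0 in 3 samples. The fourth, 35S:TEM1 replicate 2, had 0.078, an estimated 1.3 reads, so ARR17 was not measurable at this depth. No fold is given for either gene, since WT was listed at 0.

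RPKM is scaled by gene length, so levels can be ordered between members. In WT the order was ARR4 (109 ± 6.90), ARR7 (38.5 ± 9.31), ARR16 (19.0 ± 1.72), ARR8 (16.8 ± 1.54), ARR9 (13.3 ± 1.39), ARR6 (10.6 ± 3.44), ARR15 (9.08 ± 0.86) and ARR5 (7.53 ± 0.62), as mean RPKM ± SD with n = 2. Neighbours whose WT samples overlapped were ARR16 and ARR8, ARR9 and ARR6, and ARR6 and ARR15. In 35S:TEM1 the order was ARR4 (55.8 ± 3.57), ARR7 (27.7 ± 1.99), ARR9 (23.7 ± 3.84), ARR6 (9.80 ± 1.90), ARR8 (8.34 ± 0.69), ARR16 (7.51 ± 1.54), ARR15 (6.90 ± 0.51) and ARR5 (4.66 ± 1.33). There the samples of ARR7 overlapped those of ARR9, and each of ARR6, ARR8 and ARR16 overlapped the next. ARR9 thus moved from the fifth place to the third, and ARR16 from the third to the sixth.

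The summed RPKM of the 10 members was 239.7 and 208.1 in WT, and 146.4 and 142.9 in 35S:TEM1. The ratio of the means was 1.55 in favour of WT. ARR4 made up 47.6% and 50.1% of the sum in WT, and 36.4% and 40.8% in 35S:TEM1. Without ARR4 the sum of the others was 125.7 and 103.8 against 93.1 and 84.5, a ratio of 1.29. ARR9 contributed 5.98% and 5.94% of the family sum in WT, and 18.02% and 14.7% in 35S:TEM1.

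**Figure D3:**
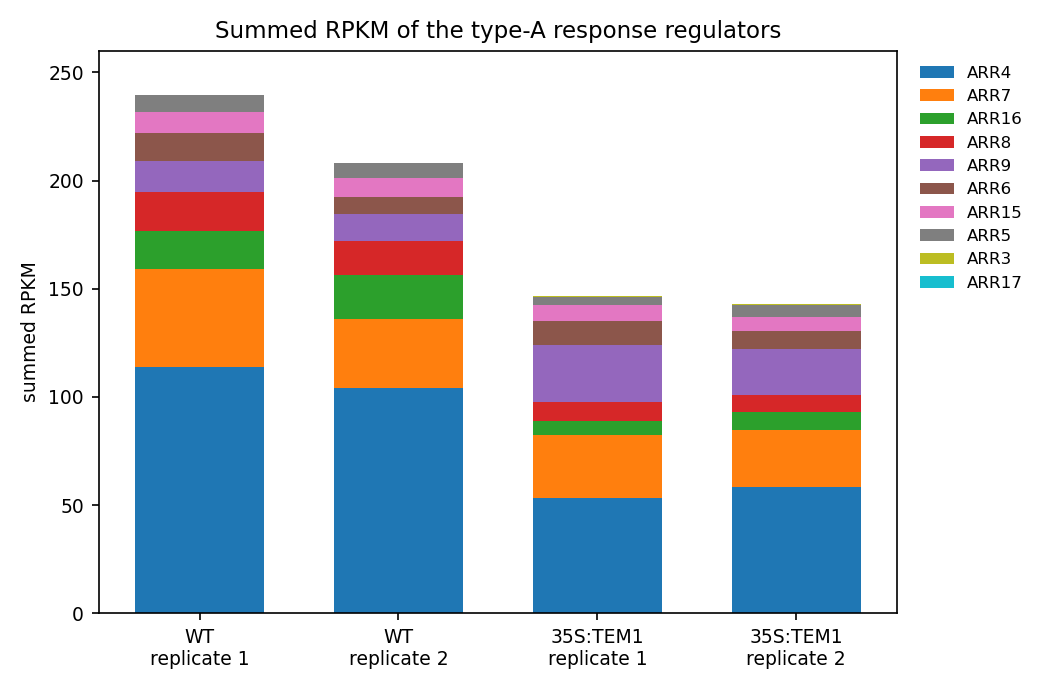
Summed RPKM of the type-A response regulators (vertical axis, linear from 0) in each of the 4 samples (horizontal axis), with 1 colour for each gene. The bars reach 239.7 and 208.1 in WT and 146.4 and 142.9 in 35S:TEM1, and the ARR4 segment at the base is shorter in both 35S:TEM1 samples while the ARR9 segment is longer.

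All 10 genes share a coding region split into 5 exons. The coding sequences of close relatives were 83.4% identical for ARR16 and ARR17, 83.2% for ARR3 and ARR4, 81.4% for ARR5 and ARR6, 81.3% for ARR8 and ARR9, and 79.0% for ARR7 and ARR15 over the aligned bases. The longest stretch without a mismatch was 41 bases for ARR3 and ARR4 and likewise for ARR8 and ARR9, and 19 to 23 bases in the other pairs. How the authors treated reads that match more than 1 gene is not given in the sources used here. In the reference, 3 members overlap another gene on the opposite strand. An exon overlap covers 12.6% of the exon length of ARR8 and 10.0% of that of ARR9, in each case with a long non-coding RNA (AT2G09250 and AT3G08825) that has no row in the deposited table. It covers 23.9% for ARR6, with the protein-coding gene AT5G62910, at 9.37 and 8.22 in WT and 7.32 and 7.83 in 35S:TEM1. The strand setting of the counting is not known, so reads of such partners may be included.

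Upstream of the family, the receptor gene AHK4 fell, and the receptor genes AHK2 and AHK3 did not pass. AHK4 (also CRE1, known mainly from roots and vascular tissue) had 13.5 and 13.6 in WT, and 8.24 and 8.07 in 35S:TEM1, a log2 difference of -0.67 ± 0.09 (limma adjusted p = 0.00429). AHK2 had 11.6 and 9.21 against 13.2 and 11.03 (0.20, adjusted p = 0.324). AHK3, best known from the shoot, had 25.5 and 22.0 in WT against 31.8 and 29.3 in 35S:TEM1 (0.35, adjusted p = 0.0503), just short of the threshold with genotypes that did not overlap, and it passed in 4 of 13 alternatives, with adjusted p from 0.0151 to 0.254 over all of them.

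Of 6 phosphotransfer genes 4 were tested, of which 1 rose and 0 fell, with 18.3% of all genes tested higher and 7.37% lower. AHP1 went from 2.39 and 3.17 to 4.55 and 4.17 (log2 difference 0.51, limma adjusted p = 0.0447), a call lost in 6 of its 12 alternatives, among them equal sample medians (0.36, adjusted p = 0.114). AHP2 (-0.19, adjusted p = 0.172), AHP3 (-0.16, 0.256) and AHP5 (-0.03, 0.844) did not pass, and with equal sample medians AHP2 did (-0.34, adjusted p = 0.0364). The others lay under a mean RPKM of 1. They were AHP4, with 0.38 and 0.42 in WT against 0 and 0.052, and AHP6, a pseudo-phosphotransfer protein that inhibits the pathway, with 0.051 and 0.065 against 0.85 and 0.56. The lower values rest on an estimated 1.5 reads in each WT sample for AHP6, and on 0 and 1.4 reads in 35S:TEM1 for AHP4.

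Of 11 type-B activator genes 6 were tested, 3 rose and 0 fell (18.3% and 7.37% of all genes tested), with a median log2 difference of 0.34 against 0.12 for all genes. ARR1 had 17.3 and 13.4 in WT, and 24.1 and 22.7 in 35S:TEM1 (0.58 ± 0.13, limma adjusted p = 0.0225), ARR12 from 6.52 and 6.59 to 9.01 and 8.68 (0.38 ± 0.09, 0.0315) and ARR10 from 7.27 and 7.14 to 9.71 and 9.07 (0.34 ± 0.10, 0.0462). These 3 are known as the activators with the largest part in cytokinin responses. With equal sample medians none of the 3 passed (0.44 with adjusted p = 0.0619 for ARR1, 0.23 with 0.113 for ARR12 and 0.19 with 0.177 for ARR10), and ARR10 and ARR12 also lost their calls whichever sample was left out, ARR1 when either 35S:TEM1 sample was. ARR14 (0.33, adjusted p = 0.0579), ARR2 (0.16, 0.305) and ARR11 (-0.01, 0.953) did not pass. The other 5 had a mean RPKM under 1, and the type-C genes ARR22 and ARR24 were listed at 0 throughout.

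Cytokinin response factor genes and a separate list of other cytokinin-induced genes did not move as 1 group. Of 5 tested cytokinin response factor genes 1 rose (20.0%, against 18.3% of all genes tested) and 0 fell (against 7.37%). CRF6 rose from 3.41 and 3.07 to 6.29 and 5.10 (log2 difference 0.65 ± 0.13, limma adjusted p = 0.0168, lost without 35S:TEM1 replicate 1). Of the 6 genes listed as cytokinin-induced 2 fell and 1 rose, where 7.37% of all genes tested were lower and 18.3% higher. The expansin gene EXPA1 fell from 279.8 and 223.9 to 136.6 and 92.4 (-1.15 ± 0.20, adjusted p = 0.00977). LBD3, a transcription factor gene also named ASL9, fell from 3.33 and 4.00 to 2.08 and 2.30 (-0.55 ± 0.13, 0.0297), which did not pass with no filter on low values, or when either 35S:TEM1 sample or WT replicate 2 was left out. GATA22, which promotes greening, rose from 9.33 and 9.94 to 17.0 and 21.3 (0.91 ± 0.12, 0.00455).

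Among the 4 tested cytokinin oxidase genes, which break the hormone down, CKX4 fell and CKX5 and CKX6 rose (7.37% of all genes tested were lower and 18.3% higher). CKX5 reached a mean RPKM of 1 only through 35S:TEM1 and CKX4 only through WT, so these counts are partly set by the filter. The other 3 genes lay under that mean and were not tested. They were CKX3 (0.16 and 0.29 in WT against 1.86 and 1.44), CKX1 (0.52 and 0.57 against 0.96 and 1.025) and CKX2 (at most 0.059 in any sample). CKX4 had 5.68 and 5.71 in WT against 0.91 and 0.61 (log2 difference -1.93 ± 0.14, limma adjusted p = 0.000626). CKX5 had 0.58 and 0.61 against 1.67 and 1.95 (0.82 ± 0.15, 0.0112), lost without 35S:TEM1 replicate 2, and CKX6 had 2.34 and 2.25 against 4.10 and 3.91 (0.60 ± 0.11, 0.0139), lost when either 35S:TEM1 sample was left out. Of 18 synthesis genes 8 were tested, of which 2 rose and 1 fell. Both that rose had a WT mean under 1 and were tested only through their level in 35S:TEM1, so the count says nothing of synthesis genes as low in WT that were not tested. CYP735A2, the hydroxylase that makes trans-zeatin forms, rose from 0.49 and 0.55 to 3.11 and 2.36 (1.29 ± 0.16, 0.00331). LOG3, of the enzymes that release active cytokinin, rose from 0.42 and 0.34 to 2.60 and 1.49 (1.11 ± 0.21, 0.0130, lost without 35S:TEM1 replicate 1). LOG1 of the same family fell from 17.2 and 18.1 to 12.1 and 12.4 (-0.50 ± 0.09, 0.0109, lost when either 35S:TEM1 sample was left out).

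Of all 59 other cytokinin genes 36 were tested. Among these 10 rose (27.8%, against 18.3% of all genes tested), 5 fell (13.9%, against 7.37%) and 21 did not pass, and their median log2 difference was 0.16 against 0.12 for all genes. Of those called, 7 higher and 4 lower genes had a mean of at least 1 in both genotypes, and the others reached the filter through the genotype where they were high. Leaving out 35S:TEM1 replicate 1 gave 3 higher and 3 lower, and leaving out 35S:TEM1 replicate 2 gave 4 and 3. With equal sample medians 6 were higher and 9 lower.

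**Figure D4:**
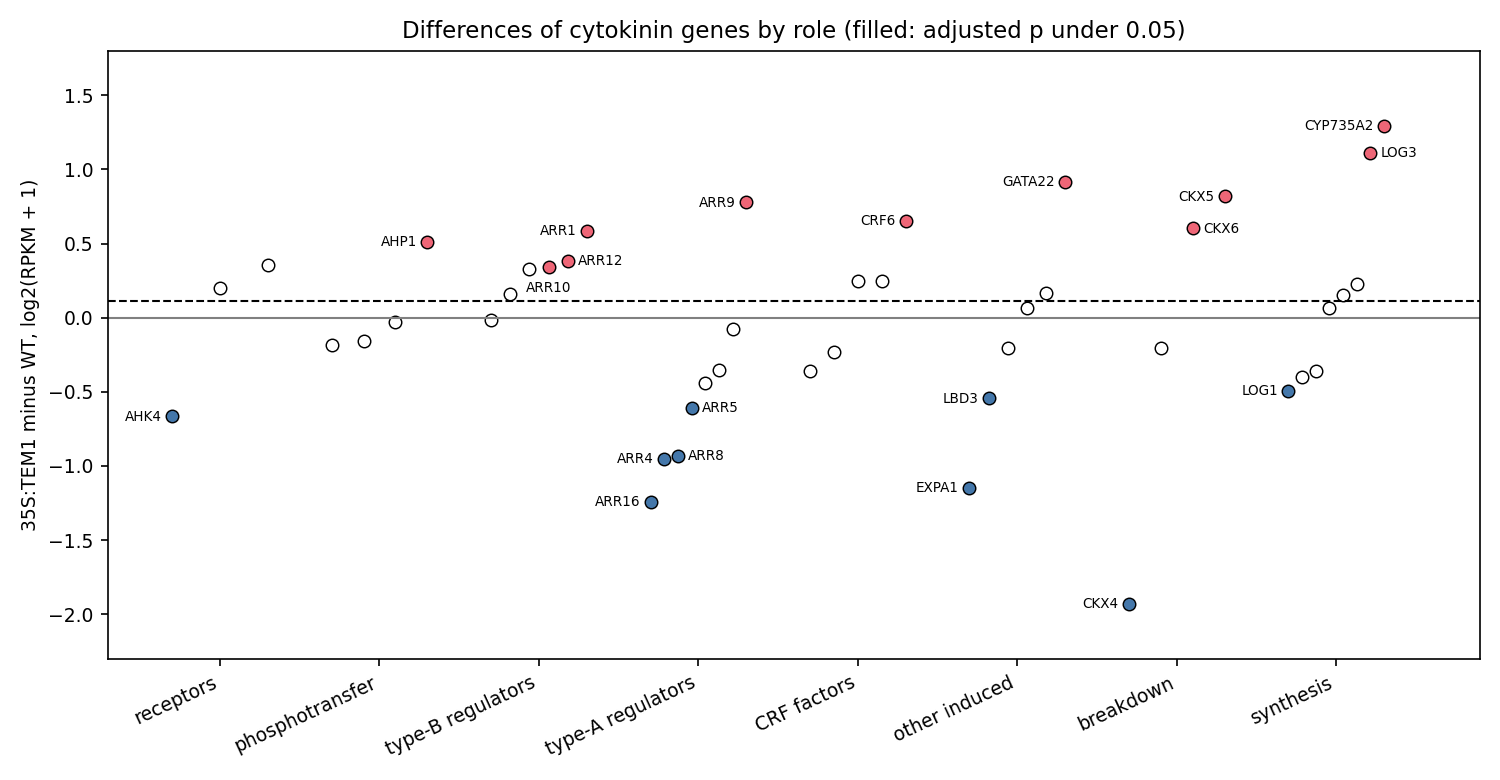
Difference between 35S:TEM1 and WT on the log2(RPKM + 1) scale (vertical axis) for the tested cytokinin genes, grouped by role (horizontal axis). Each point is a gene, filled and named where it passed an adjusted p under 0.05 (red higher, blue lower), and the dashed line is the median of all genes tested. The type-A group reaches from -1.24 to 0.78, and the type-B group from -0.01 to 0.58.

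Tissue markers differed between the genotypes in the same samples. Of 9 root markers 7 were tested and 7 rose, against 18.3% of all genes tested. For 2 of the 7, PRP3 and EXPA7, the WT mean was under 1 and the filter was passed through 35S:TEM1, which leaves 5. The summed RPKM of the 9 was 297.5 and 240.3 in WT, and 421.7 and 418.3 in 35S:TEM1, of which PYK10 made up 84.9% to 89.9% in each sample. Without PYK10 the sums were 30.1 and 31.8 against 56.9 and 63.3. Most of that rest came from SCR (18.4 and 17.5 against 29.8 and 30.6) and SHR (7.92 and 9.06 against 13.5 and 16.7). Of 6 leaf epidermis and guard cell markers 3 fell (7.37% of all genes tested) and 1 rose (18.3%). PDF1 (-0.61), FDH (-0.46) and KAT1 (-1.17) fell, although FDH lost its call (adjusted p = 0.0771) when low genes were kept. SLAC1 and MYB60, guard cell markers like KAT1, were at 0.66, which passed, and 0.31, which did not. The guard cell markers thus did not move in 1 direction. Of the meristem genes KNAT1 rose (1.46, limma adjusted p = 0.000659), and STM was at 0.44 (adjusted p = 0.0470, and 0.0826 with no filter on low values), and CLV3 and WUS were at or near 0, with at most 0.11 in any sample. The part of these shifts in the levels of the type-A genes was not tested.

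The pattern of ARR16 over the 4 samples, centred on the WT mean, was most closely matched by MYB0 (AT3G27920, also GLABROUS1, a trichome regulator), with 3.59 and 4.04 in WT against 0.79 and 1.15. Next came AT4G29030, ZFP7 (AT1G24625), UGT85A2 (AT1G22360) and PYL5 (AT5G05440), at root-mean-square distances of 0.057 to 0.083 on the log2 scale, and 0.054 for MYB0. With 4 samples in 2 groups, such a match mainly reflects a log2 difference of similar size.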

How the data were processed

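RNA was sequenced from 2 pools of WT and 2 of 35S:TEM1 plants. The values deposited by the authors are RPKM, 1 column per sample. Cuffdiff 2.2.1, STAR, bcl2fastq 1.8.4 and FastQC are listed, without their roles, per the submitters' processing notes, as is the build TAIR10. What counted the reads, on which annotation and strand, is not given in the sources used here.

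Fold differences are 35S:TEM1 minus WT of log2(RPKM + 1), which understates changes of low genes. They were tested with limma 3.58.1 (R 4.3.3, mean-variance trend, 2 residual and 4.17 prior degrees of freedom), and the procedure was tested on simulated data. The simulated data had independent noise and no shift shared by the genes of a sample, so shifts of that kind were not covered. Scaling totals were read from loci holding 1 read over the reference exon length. Read numbers are therefore estimates, and floors cover counting error only (3 reads in 1 kb are an RPKM of 0.0986 to 0.149).

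Annotation and sequences came from RefSeq TAIR10.1 (Biopython 1.88). The table holds no coordinates, and loci were matched by identifier (31912 of 32678, all 10 members). The members and lists were chosen with earlier results of these data known. Named genes are all members, TEM1, the tested receptor, phosphotransfer and type-B genes, the other cytokinin genes that passed, at most 3 markers a list with the highest mean, and the 5 closest to the member with the largest difference. AHP4, AHP6, CKX1, CKX2, CKX3, ARR22, ARR24 and further markers (PRP3, EXPA7, KAT1, SLAC1, MYB60, WUS) were named after their values were seen. Of the markers with the highest means TMM, FAMA and ATML1 are not named above, and SPCH, which is, was the 1 stomatal marker that passed. Alternatives were other pseudocounts, filters, scalings and variance models, a replicate block and leaving out each sample.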

Additional observations from a re-analysis of the deposited data

How the results depend on the processing

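ARR4, ARR8 and ARR16 kept their direction and passed in all 13 alternatives, with ranges of -1.10 to -0.89, -1.08 to -0.84 and -1.43 to -1.06. ARR9 ranged from 0.62 to 0.94 and ARR5 from -0.85 to -0.37, with adjusted p from 0.0186 to 0.198 for ARR5. Higher type-A members numbered 2 with no filter on low values, where the second, ARR3, was above 0 only in 35S:TEM1, and 0 to 1 without single samples, and lower ones 3 to 6 over all alternatives. Other cytokinin genes numbered 5 higher and 3 lower at a mean RPKM of at least 5, where 22 were tested, 6 and 9 with equal sample medians, and 3 to 8 higher and 3 to 7 lower without single samples. Over all genes there were 1884 higher and 2388 lower with equal sample medians, 2021 higher with quantile normalization, and 1331 to 2955 higher and 545 to 1417 lower without single samples. Directions turned for ARR6 (-0.39 to 0.23 without single samples), ARR2 (-0.016 with quantile normalization) and ARR11 (-0.046 to 0.019 without single samples), none of which passed in any setting. The cause was not tested.

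The replicate block gave 6 lower and 1 higher type-A members, adding ARR7 and ARR15, and 4321 higher and 1801 lower genes. Samples share only a number: the deviations of same-numbered samples had a correlation of 0.32 across genes, and the labels name nothing that pairs them. Of 394 values of 31 single genes, 335 kept direction and side of the threshold, 43 lost a call, 11 gained one and 5 turned. ARR3 and ARR17 rest on a few reads, too few for a fold or a comparison.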
